A study of Caenorhabditis elegans with 24 samples.

Results

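Muscle cells of *daf-16(lf)* mutants were compared with all cells of the same mutants, to describe which transcripts the muscle gate of the sort enriched and which it removed at high insulin/IGF-1 signaling (IIS). The libraries were chosen by the genotype and cell type in their labels, 4 of "muscle cells" and 2 of "all cells", which makes 6 of the 24 libraries of the series. The strain carried the loss-of-function allele *daf-16(mu86)*, a deletion in *daf-16*, with a functional *daf-2*, and a transgene that puts GFP in the body wall muscle. All 4 genotypes of the series carried that transgene, and its promoter is not given in the sources used here. The worms were synchronized hermaphrodites kept at 22.5 °C until young adulthood, then opened with SDS and DTT and dissociated with pronase. Cells that were GFP positive and took up no propidium iodide, a dye that enters dead cells, were collected as muscle cells, and all cells without the dye, with no gate on GFP, were collected as all cells. A pair of genotypes at low IIS stand beside them, with 3 libraries of each cell type: a double mutant of *daf-16(lf)* and *daf-2(lf)*, which also lacks DAF-16, and *daf-2(lf)* alone. Both carried the temperature-sensitive *daf-2(e1370)* allele and were kept at 15 °C up to the last larval stage, with a shift to 22.5 °C over the final 8 h. The *daf-2* allele, rearing temperature and any difference in stage or library kit cannot be told apart in any comparison with them.

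The body wall muscle of *C. elegans* is built of striated sarcomeres in flat cells along the body. Myosin thick filaments, wound on a paramyosin core, are anchored at M-lines, and actin thin filaments are anchored at dense bodies, which also fasten the cell to the basement membrane and through it to the hypodermis. The pharynx has a separate set of muscle cells with its own myosins and troponins. In IIS the receptor DAF-2 acts through PI3 kinase and AKT kinases to hold the FOXO transcription factor DAF-16 in the cytosol, so high IIS and loss of *daf-16* both leave little DAF-16 activity.

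The mRNA-seq values were TPM, the share of a transcript in its library after division by its length and scaling to a fixed total, summed here over the transcripts of a gene. Differences are given as muscle cells minus all cells on the log2(TPM + 1) scale and were tested with limma over 14714 genes, at a Benjamini-Hochberg adjusted p under 0.05. TPM hold no read depth, and the study gives reads only as an average and range over its samples. The counting error of a value is therefore unknown. Genes above 0 TPM numbered 14320 to 16372 in the muscle cell libraries and 17412 and 17674 in the all cells libraries. Muscle replicate 4 stood apart from the other muscle libraries, with a correlation of log2(TPM + 1) across genes of 0.87 to 0.93 against 0.97 to 0.99 among replicates 1 to 3. Its difference from their mean fell with transcript length, from a median of 0.86 in the shortest of 5 equal length classes of genes to 0.09 in the longest. The main comparison also varied with length. Muscle replicates 1 to 3 minus all cells had a median of -0.65 in the shortest class and -0.12 in the longest. With replicate 4 included the medians were -0.37 and -0.17. Libraries of this series were made with either of 2 kits, and which kit made which library is not given in the sources used here, so its part in this pattern was not tested. Muscle replicate 1 had the lowest summed level of the intestinal, neuronal, hypodermal, glial, sperm and pharyngeal muscle lists. In the 2 all cells libraries labelled wild-type, *daf-16* transcripts at 2.58 to 3.89 TPM in wild-type muscle cells were at 0, which may go against that label. These transcripts were chosen for being at 0 in strains without DAF-16. The first of these libraries had only 9198 genes above 0 TPM. Totals over all *daf-16* transcripts were 10.8 TPM in the first and 3.77 TPM in the second, against 7.43 to 10.8 TPM in wild-type muscle cells. Whether the label holds was not tested. Both libraries enter the main fit through the shared estimate of the spread and the choice of the genes tested. They also enter the alternative scalings. Without them in the fit, over the same genes, 24 genes were higher and 3727 lower in *daf-16(lf)* muscle cells. The counts of lowered genes rested most on all cells replicate 2, and those that moved by over 1.5 times without it are given so.

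**Figure D1:**
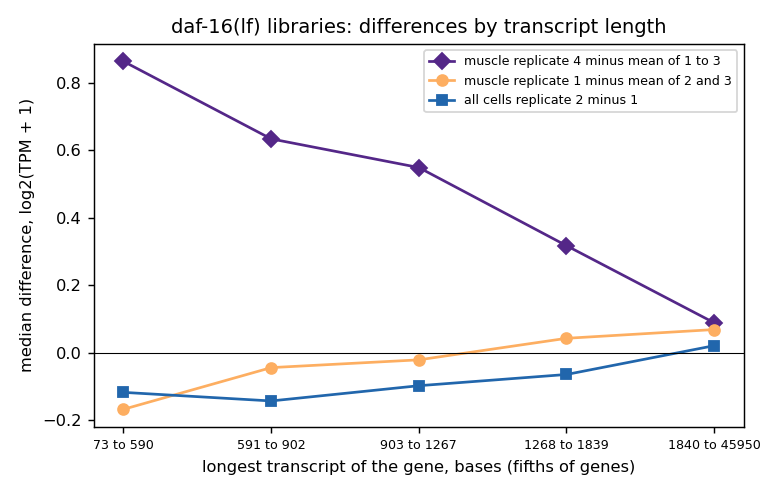
Median difference of log2(TPM + 1) between *daf-16(lf)* libraries (vertical axis) in 5 equal classes of genes by the length of their longest transcript in bases (horizontal axis), for genes of at least 10 TPM on average. The line of muscle replicate 4 against replicates 1 to 3 goes from 0.86 to 0.09, while the lines of muscle replicate 1 and of all cells replicate 2 stay between -0.17 and 0.07.

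The targeted gene *daf-16* (R13H8.1, WBGene00000912, chromosome I, 10750498 to 10776703, reverse strand of WBcel235) was examined first. Of its 14 transcripts, 7 were picked for being listed at 0 TPM in all 12 libraries labelled *daf-16(lf)* or double mutant, and these summed to 2.58, 2.69, 3.89 and 3.34 TPM in the 4 wild-type muscle libraries. Their absence from the 6 *daf-16(lf)* libraries follows from that choice and is a description. The remaining transcripts gave *daf-16(lf)* totals of 3.2, 3.42, 3.76 and 8.95 TPM in muscle replicates 1 to 4 and 8.64 and 8.71 TPM in all cells replicates 1 and 2. Muscle replicates 1 to 3 lay below all cells in this remainder and replicate 4 lay slightly above.

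Far more genes were lower than higher in *daf-16(lf)* muscle cells. Of 14714 genes, 13 were higher (0.0884%) and 3092 were lower (21.0%). The 13 raised genes were higher by log2 differences of 0.54 to 1.1, and at an unadjusted p under 0.05 the number was 73. Among the lowered genes, 2725 were lower by at least 1, 1345 by at least 2 and 123 by at least 4 log2 units. In bulk samples such as these, fewer cells of a type and less RNA per cell cannot be told apart. The median over all genes was -0.44 in TPM. Median-of-ratios scaling, which sets the typical gene equal between libraries, moved this median to -0.06 and the split to 336 higher and 2519 lower. Quantile normalization gave a median of 0.24, with 1178 higher and 1578 lower. More genes were lower than higher under both. The numbers raised and lowered and the sign of the median changed with the scaling. Without all cells replicate 2, 0 genes were higher by limma (5 at an unadjusted p under 0.05) and 844 were lower, without all cells replicate 1 the numbers were 5 and 2266, and without muscle replicate 4 they were 15 and 3868. Without muscle replicate 1 or 3, 5 or 7 genes were higher, and 2146 or 2518 lower. Counts of a list under another setting are to be read beside the counts over all genes in that setting.

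The markers of the body wall muscle were abundant in muscle cells and nearly as abundant in all cells. *myo-3*, the minor myosin heavy chain at the middle of the thick filament (K12F2.1, WBGene00003515, chromosome V, 12226817 to 12234343, reverse strand), had 153, 125, 199 and 164 TPM in muscle replicates 1 to 4 and 139 and 129.8 TPM in all cells. *unc-54*, the major myosin heavy chain (F11C3.3, WBGene00006789, chromosome I, 14855901 to 14863482, reverse strand), had 16752, 11697, 16181 and 3883 TPM in muscle cells and 8838 and 11385 TPM in all cells. *unc-15*, the paramyosin of the filament core (F07A5.7, WBGene00006754, chromosome I, 7376604 to 7383197, reverse strand), had 21981, 17476, 22519 and 5858 TPM and 14044 and 15621 TPM. For all 3 genes the groups overlapped, and for *unc-54* and *unc-15* replicate 4 was the only muscle library below all cells. The differences were 0.23 (SE 0.75, limma adjusted p = 0.909) for *myo-3*, 0.07 (SE 0.55, limma adjusted p = 0.967) for *unc-54* and 0.02 (SE 0.47, limma adjusted p = 0.995) for *unc-15*. By these 3 genes the libraries labelled muscle cells were muscle-rich and did not stand apart from all cells.

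Over 72 genes of the body wall muscle, from filaments to receptors, the summed level was 39.3, 38.5, 38.9 and 23% of all TPM in muscle replicates 1 to 4 and 26.3 and 25.1% in all cells. Replicates 1 to 3 lay above all cells and replicate 4 lay below. In the libraries labelled wild-type the same genes took 23.9 to 39.1% in all cells and 28.1 to 38.2% in muscle cells. In double mutant all cells they took 1.61 to 1.78% and in double mutant muscle cells 9.19 to 12%. By this sum *daf-16(lf)* all cells lay above the sorted muscle cells of the double mutant. The mean of log2(TPM + 1) over the genes did not differ beyond the spread, 6.85 ± 0.09 (SD, n = 2) against 7.08 ± 0.64 (SD, n = 3). A large part of the sum was a single gene, *pat-10* (the body wall troponin C), with 119231, 117431, 116489 and 76074 TPM in *daf-16(lf)* muscle cells and 80676 and 74029 TPM in all cells.

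**Figure D2:**
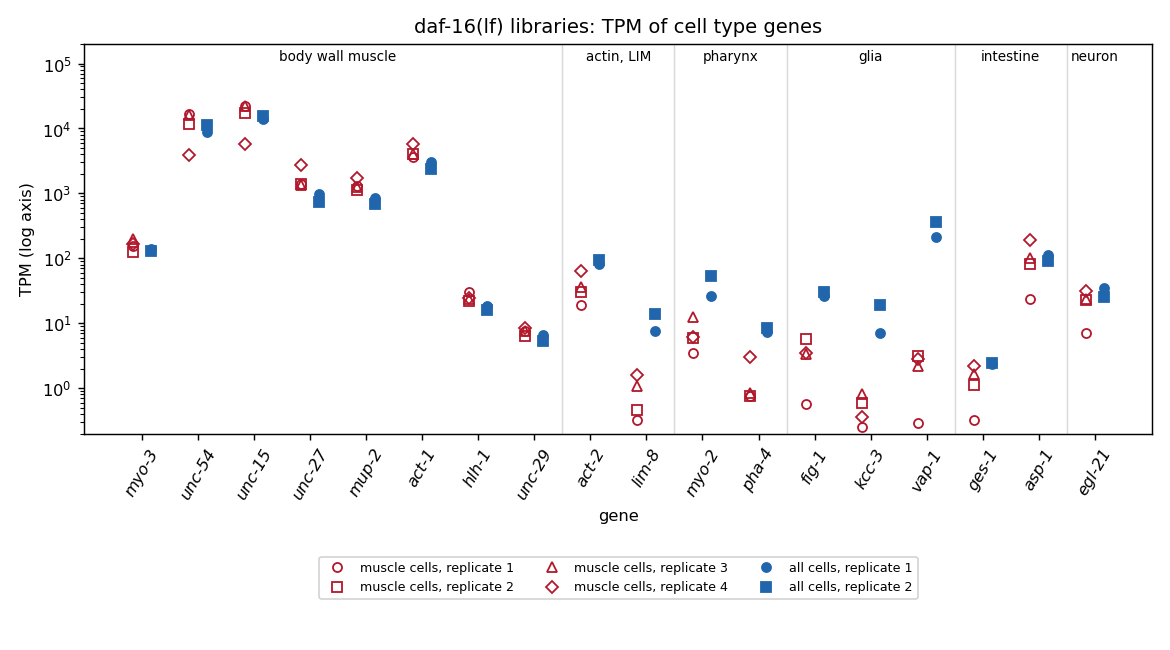
TPM on a log axis (vertical) of genes of several cell types (horizontal) in each *daf-16(lf)* library, with open red symbols for the 4 muscle libraries and filled blue symbols for the 2 all cells libraries, and the same shape for the same replicate number. Body wall muscle genes lie at like heights in both groups, *act-2*, *lim-8* and the genes of pharynx and glia lie higher in all cells, and the intestinal and neuronal genes overlap or nearly so, with muscle replicate 1 lowest.

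Of the 13 raised genes, 4 encode proteins of the sarcomere. *unc-27*, the body wall troponin I (ZK721.2, WBGene00006764, chromosome X, 8789456 to 8790621, reverse strand), had 1383, 1394, 1336 and 2708 TPM in muscle cells and 996 and 732 TPM in all cells, a difference of 0.93 (SE 0.25, limma adjusted p = 0.0112). *mup-2*, the body wall troponin T (T22E5.5, WBGene00003495, chromosome X, 6408471 to 6410227, reverse strand), had 1288, 1121, 1258 and 1731 TPM and 854 and 697 TPM, a difference of 0.79 (SE 0.21, limma adjusted p = 0.0106). The groups did not overlap in either gene, and every muscle library was above both all cells libraries. *act-1*, a muscle actin, had 3687, 4103, 3999 and 5830.2 TPM and 3094 and 2349 TPM, with a difference of 0.68 (SE 0.24, limma adjusted p = 0.047). *mlc-2*, a regulatory myosin light chain that overlaps the annotated C36E6.2, had 1785, 1785, 1722 and 3279.7 TPM and 1435 and 1066 TPM, with a difference of 0.74 (SE 0.26, limma adjusted p = 0.0496). *act-1* and *mlc-2* each have a near-identical paralog, *act-3* and *mlc-1*, with which reads may be shared, so the split between the copies is uncertain. *act-3* had 3127, 3289, 3303 and 4249.9 TPM and 2443 and 1939 TPM and did not pass the test (0.67, SE 0.28, limma adjusted p = 0.0942), and neither did *mlc-1* (0.43, SE 0.26, limma adjusted p = 0.298).

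The other 9 raised genes were of mixed function. *ttr-16*, *ttr-6* (transthyretin-related proteins) and *cpg-9* (a chondroitin proteoglycan by name) had differences of 0.54, 0.90 and 0.57. *ttr-16* was among the most abundant transcripts, with 32533, 29856, 30556 and 24329 TPM in muscle cells and 21721 and 18547 TPM in all cells (limma adjusted p = 0.0226). *cpg-9* had 13429, 13359.9, 13959 and 9491 TPM and 8570.1 and 8185 TPM (limma adjusted p = 0.0344). Both stayed above all cells in every muscle library, and both missed the threshold under median-of-ratios scaling, at adjusted p = 0.057 and 0.0507. *gta-1* (4-aminobutyrate aminotransferase, which breaks down GABA) had 399, 381, 407 and 624 TPM and 289.7 and 213 TPM, a difference of 0.83 (SE 0.28, limma adjusted p = 0.0381). *nep-2*, a neprilysin peptidase that overlaps 2 annotated genes, had 7.08, 5.49, 4.94 and 14.6 TPM and 4.36 and 2.56 TPM, a difference of 0.93 (SE 0.32, limma adjusted p = 0.0441). *heh-1*, Y53F4B.14 and *nrf-5* (a lipid-binding protein) were higher by 0.87, 0.82 and 0.65. *dod-21* was listed at 0 in both all cells libraries and at 0.464, 0.976, 1.51 and 1.93 TPM in muscle cells (limma adjusted p = 0.0255), values low enough that no fold is given. For all 13 the libraries did not overlap, against 2.7% of all genes not overlapping in that direction, and since non-overlap was a condition for naming them this is a description. The call was kept by 0 of the 13 without all cells replicate 2 and by 5 without muscle replicate 4.

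Few genes of the sarcomere lists passed the test, though more than among all genes. Of 16 thin filament genes, 3 were higher and 1 lower, against 0.0884% higher and 21.0% lower among all genes. At an unadjusted p under 0.05, 8 were higher. Their median was 0.56, which is 1.00 above the median of all genes. Of 7 thick filament genes, 1 was higher and 0 were lower, with a median of 0.43, or 0.87 above that of all genes. *lev-11* (tropomyosin) had 24816, 24825, 24602 and 12401 TPM in muscle cells and 16549 and 15600.1 TPM in all cells and did not pass the test (0.37, SE 0.27, limma adjusted p = 0.411). *mlc-3*, the essential myosin light chain, had 37972, 40949, 36717 and 26561 TPM and 26178 and 23077 TPM with no overlap and still missed the threshold (0.51, SE 0.20, limma adjusted p = 0.0705). In *pat-10*, *act-4*, *cpn-3*, *clik-1*, *lev-11* and *mlc-3* replicate 4 was the lowest muscle library, and in *unc-27*, *mup-2*, *act-1* and *mlc-2* it was the highest. Under median-of-ratios scaling 9 of the thin filament and 2 of the thick filament genes were higher, beside 336 of all 14714 genes. With that scaling and without muscle replicate 4, a fit chosen after seeing the data, they numbered 14 and 4. Without replicate 4 but on unscaled TPM they numbered 6 and 2, and without all cells replicate 2 both were 0.

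Genes of attachment, excitation and calcium handling followed the same pattern, beside 0.0884% higher and 21.0% lower among all genes. Of 13 dense body and attachment genes 0 passed by limma (1 higher and 0 lower at an unadjusted p under 0.05), with a median of 0.42. *atn-1* (alpha-actinin) had 171, 148, 179 and 157 TPM in muscle cells and 147 and 109 TPM in all cells, and *unc-95*, a LIM-domain protein of dense bodies and M-lines, had 79.0, 66.5, 75.2 and 108 TPM and 63.9 and 48.8 TPM. Every muscle library was above all cells in both genes, with differences of 0.36 and 0.53 that did not pass the test (limma adjusted p = 0.35 and 0.147). Of 15 receptors and channels 0 passed by limma (0 higher and 0 lower at an unadjusted p under 0.05), with a median of 0.20. *unc-29*, a subunit of the levamisole acetylcholine receptor, had 7.65, 6.32, 7.61 and 8.60 TPM and 6.64 and 5.25 TPM, and *unc-49*, the GABA receptor, had 331, 280.2, 285 and 141 TPM and 226 and 203 TPM. Both overlapped between the groups. Of 11 genes of calcium handling and the dystrophin complex 0 passed by limma (1 higher and 1 lower at an unadjusted p under 0.05), with a median of 0.13, *csq-1* (calsequestrin) being the nearest at 0.58 (SE 0.23, limma adjusted p = 0.0752). *hlh-1*, the MyoD homolog, had 29.8, 22.2, 23.9 and 24.3 TPM and 18.3 and 15.7 TPM without overlap and a difference of 0.53 (SE 0.26, limma adjusted p = 0.184). Under median-of-ratios scaling 7, 6 and 4 genes of these lists were higher, beside 336 of all 14714 genes. *hlh-1* was higher too under that scaling (limma adjusted p = 0.0273).

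A few genes on the muscle lists were lower in muscle cells, *act-2* and *lim-8* among them, and without all cells replicate 2 the count was 0 in both of their lists (0 and 1 at an unadjusted p under 0.05). *act-2*, an actin, had 19.3, 30.1, 36.8 and 63.7 TPM in muscle cells and 80.9 and 95.4 TPM in all cells, a difference of -1.33 (SE 0.45, limma adjusted p = 0.0397) that missed the threshold under median-of-ratios scaling (adjusted p = 0.215). *lim-8*, a LIM-domain protein and the 1 lowered gene of 7 on the list of M-line and giant proteins, had 0.328, 0.469, 1.06 and 1.62 TPM and 7.59 and 13.8 TPM, and fell by 2.65 on the log2 scale (SE 0.57, limma adjusted p = 0.00214). *tni-3*, a further troponin I that overlaps *phy-3*, had 237, 177, 244 and 24.5 TPM and 253 and 266 TPM, with replicate 4 far below the rest and no call (-1.03, SE 0.80, limma adjusted p = 0.451).

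Of 17 genes of the basement membrane, 3 were lower and 0 higher by limma (1 higher and 3 lower at an unadjusted p under 0.05), a share below the 21.0% of all genes that were lower. The count was 0 without all cells replicate 2 (3 at an unadjusted p under 0.05). The collagen IV chain *emb-9*, made by body wall muscle, had 324, 288, 348 and 328 TPM in muscle cells and 245 and 203 TPM in all cells with no overlap, and its difference did not pass the test (0.52, SE 0.21, limma adjusted p = 0.0867). *let-2*, the other collagen IV chain, had 4319, 3355, 4183 and 1009 TPM and 2504 and 2964 TPM, and *ost-1* (SPARC, a collagen IV partner) had 11839.8, 10659.9, 10762 and 6336 TPM and 7845 and 7239.8 TPM, with replicate 4 below all cells in both. *nid-1* (nidogen) had 1.65, 1.61, 2.28 and 2.27 TPM and 7.73 and 9.81 TPM and was lower, with a difference of -1.73 (SE 0.42, limma adjusted p = 0.00529). *cle-1* (collagen XVIII) and *gpn-1* (glypican) were lower, with differences of -2.0 (SE 0.58, limma adjusted p = 0.0171) and -2.57 (SE 0.57, limma adjusted p = 0.0027).

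**Figure D3:**
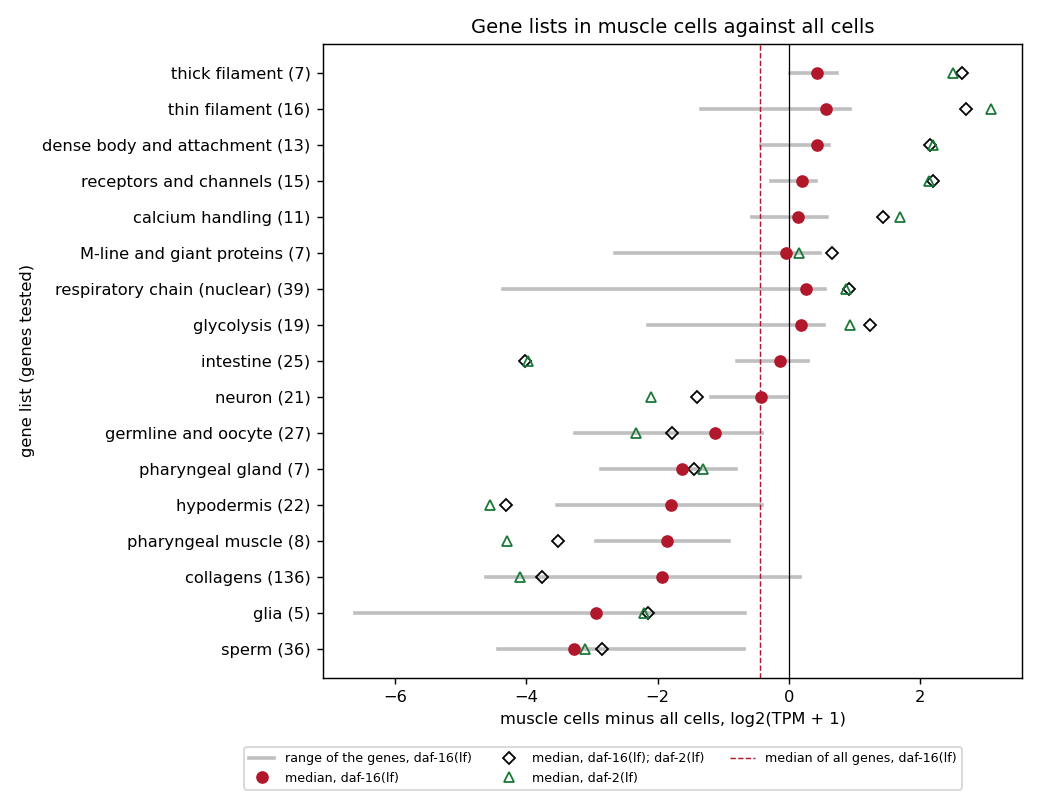
Muscle cells minus all cells on the log2(TPM + 1) scale (horizontal) for gene lists (vertical, with the number of genes tested): red dots are medians and grey bars the range of the genes in *daf-16(lf)*, open diamonds and triangles are medians in the double mutant and in *daf-2(lf)*, and the dashed line is the median of all genes in *daf-16(lf)*, -0.44. Muscle lists lie near 0 in *daf-16(lf)* and between 1.43 and 3.07 in the others for filaments, attachment, receptors and calcium, and the intestine list lies at -0.13 against -4.01 and -3.97.

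Transcripts of glia were lower in muscle cells, with a median of -2.93 over the list. Of 5 glial genes tested, 4 were lower, against 21.0% of all genes. *vap-1*, a secreted venom-allergen-like protein of the sheath glia of amphid sense organs (F11C7.3, WBGene00006886, chromosome X, 17393939 to 17396556, reverse strand), had 0.296, 3.09, 2.16 and 2.82 TPM in muscle cells and 211 and 359 TPM in all cells. This was the largest difference of all genes tested, -6.61 (SE 0.82, limma adjusted p = 1.54e-05). *fig-1*, a secreted glial protein, had 0.567, 5.75, 3.38 and 3.51 TPM and 26.1 and 30.0 TPM, a difference of -2.93 (SE 0.44, limma adjusted p = 0.000108). *kcc-3*, a potassium-chloride cotransporter of amphid sheath glia, had 0.25, 0.598, 0.806 and 0.355 TPM and 7.18 and 19.0 TPM, a difference of -3.10 (SE 0.32, limma adjusted p = 1.99e-06). Muscle replicate 4 was depleted of these 3 genes about as far as replicates 2 and 3, and replicate 1 held the lowest value of each. The summed level of the list was 0.365, 3.05, 2.02 and 2.52% of the all cells mean in muscle replicates 1 to 4.

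The *nspc* genes, named as the nematode-specific peptide family group C, were lower as a family, which was picked after its values were seen. All 17 of them were lower, against 21.0% of all genes, with differences of -6.40 to -2.92 and a median of -5.74. They held 17 calls also under median-of-ratios scaling and without muscle replicate 4, and 16 without all cells replicate 2. *nspc-14* (F42F12.7, WBGene00009638, chromosome X, 12358614 to 12359057, reverse strand) had 10.6, 137, 114 and 156 TPM in muscle cells and 5196 and 7394 TPM in all cells, a difference of -6.40 (SE 1.04, limma adjusted p = 0.000192). The genes are close copies of each other, so the division of reads among them is uncertain, but their sum was 90.5, 746, 671 and 686 TPM in muscle cells and 20453 and 31983 TPM in all cells. That is 0.345, 2.84, 2.56 and 2.62% of the all cells mean, and all 4 muscle libraries were far below both all cells libraries. Of the 15 genes with the largest falls, 6 were *nspc* genes, and the others included *vap-1*, *spig-9* and genes known only by sequence names. The libraries of all 15 did not overlap, as for 42.3% of all genes in that direction, and this was a condition for naming them. *spig-9* had 32.7, 162, 137 and 345 TPM and 6182 and 9232 TPM, a difference of -5.89 (SE 0.92, limma adjusted p = 0.000138). K09C6.9 had 1.30, 11.4, 10.7 and 5.13 TPM and 442 and 679 TPM, and F07C6.3 had 0.682, 2.99, 3.32 and 2.56 TPM and 178 and 293 TPM, with differences of -6.35 and -6.17. F11C7.2, T19H12.3, Y69A2AR.22, F35B12.9 and K02E11.6 were lower, with differences of -5.95, -5.82, -5.90, -5.92 and -6.08. All 15 kept their sign in all 18 other settings tried, including each *daf-16(lf)* library left out. Their call was kept wherever both all cells libraries were in the fit, and where either was left out only the sign is given for them.

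Transcripts of the pharynx were lower in muscle cells. Of 8 genes of pharyngeal muscle, 6 were lower, against 21.0% of all genes, with a median of -1.85. *myo-2*, a myosin heavy chain of the pharynx (T18D3.4, WBGene00003514, chromosome X, 12468061 to 12475348, reverse strand), had 3.46, 5.85, 13 and 6.14 TPM in muscle cells and 26.0 and 53.1 TPM in all cells, a difference of -2.37 (SE 0.64, limma adjusted p = 0.0105). The other pharyngeal myosin *myo-1* had 2.90, 4.35, 10.1 and 1.72 TPM and 23.7 and 58.9 TPM, a difference of -2.94 (SE 0.64, limma adjusted p = 0.00233). *tnc-2*, the pharyngeal troponin C, had 24.6, 44.4, 75.9 and 73.9 TPM and 159 and 224 TPM, a difference of -1.90 (SE 0.47, limma adjusted p = 0.00584). The pharyngeal troponin C was lower while the body wall troponin C *pat-10* showed no call, and no muscle library reached all cells in these 3 genes. *pha-4*, the FOXA factor that specifies the pharynx, was lower, with a difference of -2.01 (SE 0.40, limma adjusted p = 0.00122). Under median-of-ratios scaling 3 of the list were lower, and *myo-2* was not (adjusted p = 0.0595). Without all cells replicate 2, 1 was lower. The list kept 11.3, 21.8, 37.8 and 31.5% of its all cells level in muscle replicates 1 to 4. Of 7 pharyngeal gland genes, 5 were lower (2 under median-of-ratios scaling, 0 without all cells replicate 2, where 3 were at an unadjusted p under 0.05), among them *phat-1* and *phat-4*, proteins of the pharyngeal glands, at -2.86 and -2.26. The *abu* genes, secreted proteins many of which are made by the pharynx, were 11 lower of 12 (4 without all cells replicate 2), a family picked after its values were seen.

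Hypodermal and collagen transcripts were far lower in muscle replicates 1 to 3 than in replicate 4 and all cells. The 155 *col* genes, most of them cuticle collagens secreted by the hypodermis, summed to 1344, 4546, 4281 and 37007 TPM in muscle replicates 1 to 4 and 43511 and 44470.5 TPM in all cells. Replicates 1 to 3 kept 3.06, 10.3 and 9.73% of the all cells level and replicate 4 kept 84.1%. Of 136 tested, 48 were lower and 0 higher, against 21.0% lower among all genes, with a median of -1.94. Under median-of-ratios scaling 28 were lower. Without replicate 4, 79 were lower with a median of -2.60, and without all cells replicate 2, 11 were. *col-117*, the most abundant of them in all cells, had 152, 465, 481 and 3568 TPM in muscle cells and 3799 and 4408 TPM in all cells, a difference of -2.79 (SE 0.81, limma adjusted p = 0.0169). *col-65* had 5.33, 41.2, 29.6 and 385 TPM and 886 and 1196 TPM, the largest fall of the family (-4.61, SE 1.26, limma adjusted p = 0.0118). Of 22 hypodermal genes, 10 were lower (16 without replicate 4, 8 under median-of-ratios scaling, 1 without all cells replicate 2), with a median of -1.80. *lin-26*, a zinc finger factor of epithelial fate, had 0.946, 1.57, 1.48 and 2.76 TPM and 7.18 and 6.04 TPM, a difference of -1.54 (SE 0.47, limma adjusted p = 0.022). *wrt-10*, a hedgehog-related protein, had 1.79, 4.24, 3.12 and 52.3 TPM and 99.9 and 66.8 TPM, a difference of -3.46 (SE 0.93, limma adjusted p = 0.0103). In both genes replicate 4 was the highest muscle library. The *grd* genes, further hedgehog-related genes, were 11 lower of 12 (5 without all cells replicate 2), a family picked after its values were seen.

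**Figure D4:**
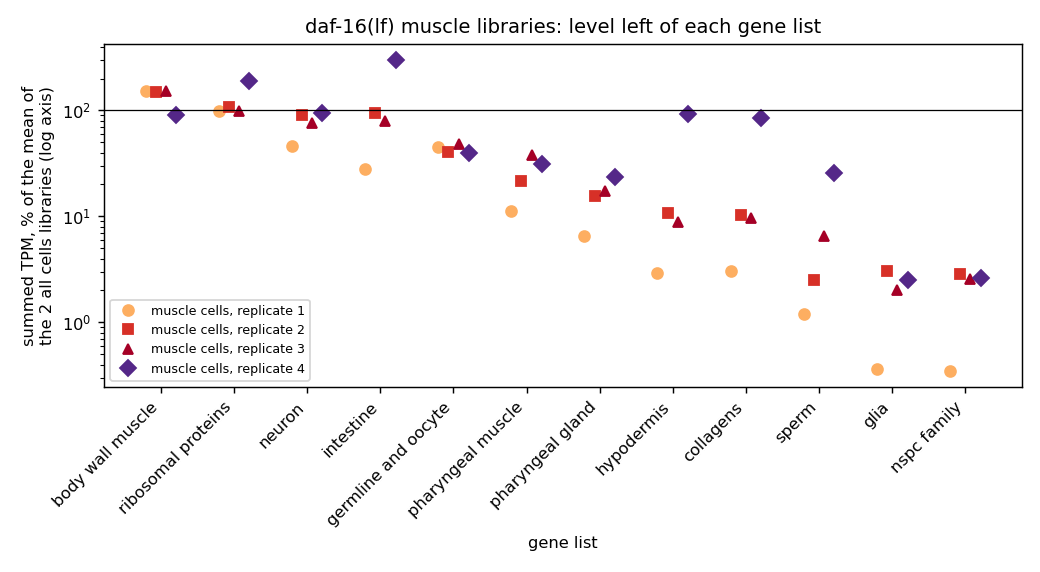
Summed TPM of gene lists (horizontal) in each *daf-16(lf)* muscle library as a percent of the mean of the 2 all cells libraries (vertical, log axis), with the line at 100%. Body wall muscle genes lie at 150.1 to 153% in replicates 1 to 3 and at 89.6% in replicate 4, hypodermal genes and collagens lie far lower in replicates 1 to 3 than in replicate 4, and the glial and *nspc* genes are at or below 3.05% in all 4.

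Transcripts of sperm, and a smaller share of those of the germline, were lower in muscle cells. Of 36 sperm genes, 24 were lower, against 21.0% of all genes, with a median of -3.27, and 19 were under median-of-ratios scaling. Most are major sperm protein genes, near-identical copies among which reads are divided uncertainly. Their levels also differed between the all cells libraries, 830.1 and 3260.1 TPM in sum, and 0 were lower by limma without the second of them (5 at an unadjusted p under 0.05), while 31 were without muscle replicate 4. The list summed to 24.8, 51.8, 133 and 525 TPM in muscle replicates 1 to 4. *ssp-16*, a sperm-specific protein, had 1.04, 4.18, 6.62 and 17.1 TPM in muscle cells and 66.4 and 261 TPM in all cells, a difference of -4.43 (SE 0.98, limma adjusted p = 0.00263). Of 27 genes of germline and oocytes, 8 were lower, with a median of -1.12. That is 29.6%, near the share of all genes, and the count was 3 without all cells replicate 2. *fbf-1* and *fbf-2*, similar RNA-binding proteins that keep germline stem cells, had differences of -3.25 and -2.62, with 2.00, 2.78, 2.97 and 4.50 TPM of *fbf-2* in muscle cells and 17 and 32.0 TPM in all cells (limma adjusted p = 0.000306). *glh-2*, a helicase of germ granules, was lower, with a difference of -2.91 (SE 0.46, limma adjusted p = 0.000146), and so was *rme-2*, the yolk receptor of oocytes, at -2.88 (SE 0.74, limma adjusted p = 0.00792). *glh-1*, the paralog of *glh-2*, had 185, 152, 184 and 115 TPM and 209.7 and 333 TPM and did not pass (-0.75, SE 0.37, limma adjusted p = 0.168).

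Genes of the intestine did not pass the test in *daf-16(lf)*, beside 21.0% lower among all genes. Their level was low in all cells as well. Of 25 intestinal genes, 0 were lower and 0 higher by limma (0 higher and 0 lower at an unadjusted p under 0.05), with a median of -0.13 that turned to 0.11 under median-of-ratios scaling. Their sum was 194, 657, 553 and 2087 TPM in muscle replicates 1 to 4 and 847 and 537 TPM in all cells, with replicate 4 above all cells and replicate 1 below. In double mutant all cells the sum was 10117 to 12739.6 TPM, and in the libraries labelled wild-type all cells it was 589 to 981 TPM. *ges-1*, a gut esterase, had 0.323, 1.13, 1.64 and 2.16 TPM in *daf-16(lf)* muscle cells, 2.37 and 2.42 TPM in all cells. In all cells of the double mutant it had 18.6 ± 2.02 TPM (SD, n = 3). *asp-1*, a gut aspartyl protease, had 23.6, 83.1, 101 and 189 TPM in muscle cells and 113 and 91.4 TPM in all cells, and 2850.4 ± 261 TPM (SD, n = 3) in all cells of the double mutant. *elt-2*, the GATA factor of the intestine, was at or below 0.707 TPM in all 6 libraries. The yolk protein genes *vit-1* to *vit-6*, which the adult intestine expresses, were at or below 0.149 TPM in all 6, and the adult cuticle collagens *col-19* and *col-119* at or below 0.87 TPM. In the double mutant all cells *vit-2* and *col-19* had 234 ± 329 TPM and 308 ± 459 TPM (SD, n = 3), with a spread larger than the mean. These markers of adulthood were near 0 in libraries that the study describes as young adults, and the part of stage in the values was not tested.

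Neuronal genes did not pass the test either, beside 21.0% lower among all genes. Of 21 neuronal genes, 0 were lower by limma (0 higher and 1 lower at an unadjusted p under 0.05), and all 21 had negative differences with a median of -0.43, close to that of all genes. *egl-21*, a carboxypeptidase that processes neuropeptides, had 7.15, 23.2, 23.3 and 31.2 TPM in muscle cells and 34.7 and 25.4 TPM in all cells (-0.63, SE 0.47, limma adjusted p = 0.43). *snb-1* (synaptobrevin) had 19.7, 24.4, 19.5 and 48.6 TPM and 31.2 and 22.7 TPM (-0.03, SE 0.32, limma adjusted p = 0.979). The list summed to 245, 487, 406 and 507 TPM in muscle cells and 645 and 421 TPM in all cells, so replicates 2 to 4 lay within or close to the range of all cells and replicate 1 lay below. Of 30 FMRFamide-like peptide genes 0 were lower by limma (0 higher and 2 lower at an unadjusted p under 0.05), and of 70 neuropeptide-like genes 3 were, with a count of 0 without all cells replicate 2 (9 at an unadjusted p under 0.05), families picked after their values were seen. With median-of-ratios scaling the neuron median was -0.11 and 0 genes were lower. Of 3 coelomocyte genes 0 passed by limma (0 higher and 2 lower at an unadjusted p under 0.05), 2 of 4 excretory genes were lower and 4 of 8 genes of the somatic gonad were (1 and 1 without all cells replicate 2), such as *fkh-6*, a forkhead factor of the gonad, at -2.88 (SE 0.55, limma adjusted p = 0.000811).

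In energy metabolism, the lowered genes were single copies of duplicated enzymes. Of 39 nuclear genes of the respiratory chain, 0 were higher and 3 lower, and 33 had positive differences, with a median of 0.25. The share lowered was below the 21.0% of all genes, and the count was 1 without all cells replicate 2. Under median-of-ratios scaling 9 were higher and 2 lower, beside 336 higher and 2519 lower of all 14714 genes. The lowered genes were *ucr-2.3*, *asb-1* and *cyc-2.2*, each a second copy of a respiratory chain gene. *cyc-2.2*, one of the cytochrome c genes, had 0.784, 2.62, 5.43 and 9.34 TPM in muscle cells and 50.3 and 166 TPM in all cells, a difference of -4.35 (SE 0.70, limma adjusted p = 0.000171). The other cytochrome c gene *cyc-2.1* had 1975, 1907, 1839 and 2013 TPM and 1686 and 1574 TPM with no call (0.25, SE 0.17, limma adjusted p = 0.372). *asb-1* was lower, with a difference of -0.84 (SE 0.29, limma adjusted p = 0.0421), while its paralog *asb-2* differed by 0.41 with no call. Of 19 glycolytic genes 2 were lower, also below the share of all genes, and the count was 0 without all cells replicate 2 (2 at an unadjusted p under 0.05). Under median-of-ratios scaling 6 were higher and 1 was lower. *aldo-2*, an aldolase, had 33.0, 78.4, 77.7 and 384 TPM and 414 and 428 TPM, a difference of -2.15 (SE 0.63, limma adjusted p = 0.0179), and *aldo-1* had 1134, 1259.7, 1126 and 822 TPM and 891 and 717 TPM with no call (0.42, SE 0.23, limma adjusted p = 0.223). *pfk-1.2*, a phosphofructokinase, was lower, with a difference of -1.32 (SE 0.26, limma adjusted p = 0.00112), and *pfk-1.1* differed by 0.33 with no call. A difference between the copies was not itself tested. Under median-of-ratios scaling *asb-1* (adjusted p = 0.636) and *aldo-2* (adjusted p = 0.0511) missed the threshold and *cyc-2.2* and *pfk-1.2* kept it.

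Other lists differed little, and their shares of lowered genes lay below the 21.0% of all genes. Of 78 ribosomal protein genes 1 was lower, *rpl-11.1* at -1.79 (SE 0.46, limma adjusted p = 0.00752), and without all cells replicate 2 the count was 0 (1 at an unadjusted p under 0.05). Their sum was 92983, 100218, 91999.8 and 176510.0 TPM in muscle replicates 1 to 4 and 96924 and 91016 TPM in all cells, with replicate 4 far above the rest. The 12 mitochondrial genes had 0 calls by limma (0 higher and 0 lower at an unadjusted p under 0.05) and a median of -0.23, which turned to 0.44 under median-of-ratios scaling. Of 19 heat shock genes, which dissociation can induce, 2 were lower and 0 higher by limma (0 higher and 2 lower at an unadjusted p under 0.05). The count of lowered genes was 0 without all cells replicate 2 (0 at an unadjusted p under 0.05) and 0 under median-of-ratios scaling (2 at an unadjusted p under 0.05). *hsp-16.48*, a small heat shock protein, had 4165, 2604, 4343 and 5220.2 TPM in muscle cells and 2480.4 and 3214 TPM in all cells (0.49, SE 0.95, limma adjusted p = 0.821). The lowered genes were *hsp-4*, the chaperone BiP of the endoplasmic reticulum, at -1.70 (SE 0.57, limma adjusted p = 0.0367), and *sip-1*, a small heat shock protein of germline and embryo, at -3.02 (SE 1.06, limma adjusted p = 0.0462). Of 20 IIS genes 0 passed by limma (0 higher and 1 lower at an unadjusted p under 0.05), with *daf-2* at 0.593, 0.625, 0.886 and 1.74 TPM in muscle cells and 0.883 and 1.35 TPM in all cells. Of 11 genes that the study named as candidate muscle DAF-16 targets, using these libraries together with other data, 0 were higher and 1, *act-2*, was lower, and since the list was chosen in part on these libraries it is no independent evidence. Among them *cex-1*, a calcium-binding protein, had 94.1, 92.1, 97.8 and 85.7 TPM and 75.5 and 57.6 TPM without overlap (0.48, SE 0.35, limma adjusted p = 0.418).

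Whether the gate enriched the same genes at low IIS was tested as a difference of differences against the double mutant, a strain that also lacks DAF-16 and shares no library with *daf-16(lf)*. The difference was negative, meaning less enriched or more depleted in *daf-16(lf)*, for 670 genes (4.55%), and positive for 2016 genes (13.7%). Under median-of-ratios scaling the numbers were 938 and 1257. The strains also differed in composition. Ribosomal protein genes took 9.1 to 9.69% of TPM in *daf-16(lf)* all cells and 37.8 to 43.8% in double mutant all cells. In muscle cells they took 9.2 to 17.7% and 33.1 to 44.3%. The part of composition, stage or library kit in these differences was not tested. Body wall muscle genes were on the negative side. Of 71 of them, 44 were negative and 1 positive, and under median-of-ratios scaling 49 and 1. Thin filament genes had a median enrichment of 0.56 in *daf-16(lf)* and 2.70 in the double mutant, and 13 of 16 passed. Receptors and channels had 0.20 and 2.19, and 12 of 15 passed. Thick filament genes had 0.43 and 2.63, and 5 of 7 passed. For *unc-54* the enrichment was 0.07 in *daf-16(lf)* and 2.63 in the double mutant, a difference of -2.56 (SE 0.75, limma adjusted p = 0.0194). For *pat-10* it was 0.45 and 2.90, a difference of -2.45 (SE 0.25, limma adjusted p = 2.6e-06), and for *hlh-1* 0.53 and 2.82, a difference of -2.30 (SE 0.36, limma adjusted p = 0.000123). *myo-3* did not differ beyond the spread (-0.82, SE 1.03, limma adjusted p = 0.66).

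Intestinal genes were on the positive side. Of 25, 24 were positive (18 under median-of-ratios scaling), with a median enrichment of -0.13 in *daf-16(lf)* against -4.01 in the double mutant. Hypodermal genes were positive in 5 of 22, pharyngeal muscle genes in 2 of 8 and neuronal genes in 1 of 21, against 13.7% of all genes. Under median-of-ratios scaling the 3 counts were 4, 0 and 0. The sperm and glia lists had medians of -3.27 and -2.93 in *daf-16(lf)* and -2.84 and -2.14 in the double mutant. The 5 largest positive genes were *gfi-1*, *irg-7*, Y59E9AR.7, *bcf-1* and K06A4.7, with differences of 6.25, 6.05, 6.03, 5.98 and 5.92. In all 5 the mean TPM was far higher in double mutant all cells than in double mutant muscle cells or either *daf-16(lf)* group. *bcf-1* had 2.79, 7.17, 8.70 and 20.0 TPM in *daf-16(lf)* muscle cells, 9.36 and 8.71 TPM in *daf-16(lf)* all cells, 1.37 to 7.93 TPM in double mutant muscle cells and 252 to 291 TPM in double mutant all cells, a difference of 5.98 (SE 0.73, limma adjusted p = 1.04e-05). Y59E9AR.7 was listed at 0 in all 6 *daf-16(lf)* libraries, so the value rests on the double mutant alone. The 5 largest negative genes were Y57G11C.38, *nspc-15*, K02E11.6, *tni-3* and K01D12.1, at -5.84, -5.61, -4.75, -4.62 and -4.61. *nspc-15* had 8.5, 97.0, 72.3 and 73.5 TPM in *daf-16(lf)* muscle cells and 2047 and 2624 TPM in all cells, and it was listed at 0 in all 6 double mutant libraries, so its value of -5.61 depends on the pseudocount and comes from *daf-16(lf)* alone.

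**Figure D5:**
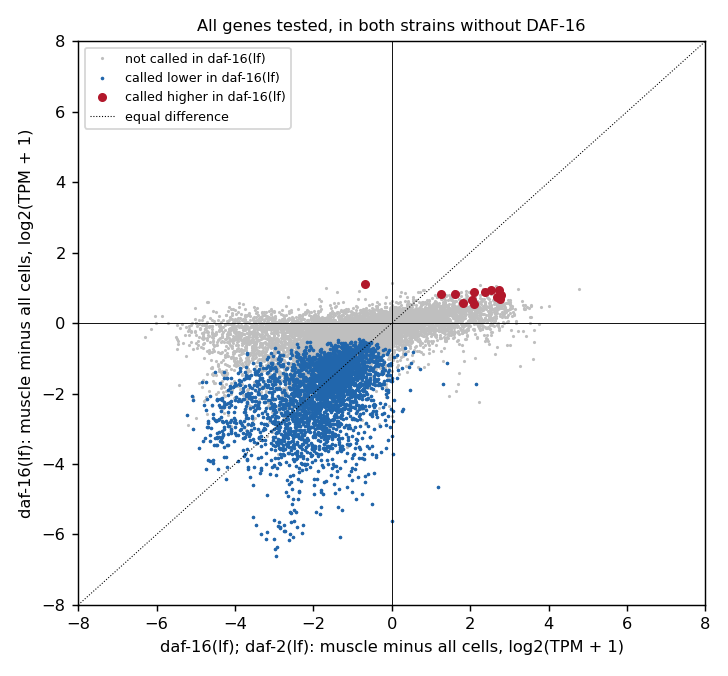
Muscle cells minus all cells on the log2(TPM + 1) scale for each gene tested, in the double mutant (horizontal) and in *daf-16(lf)* (vertical), with genes called lower in *daf-16(lf)* in blue, those called higher in red, the rest in grey and a dotted line of equal differences. The 1027 genes that were higher in muscle cells in both low-IIS genotypes have a median of 1.63 in the double mutant and 0.25 in *daf-16(lf)*, the 13 red points lie at 0.54 to 1.1, and the lowest blue points reach -6.61.

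The comparison with *daf-2(lf)* gave 725 negative genes (4.93%) and 2942 positive genes (20.0%). It shares the *daf-16(lf)* libraries with the comparison with the double mutant, so the results of both are given side by side and are not independent. Of 71 body wall muscle genes 47 were negative, and of 25 intestinal genes 18 were positive, with medians in *daf-2(lf)* of 2.19 and -3.97. The 5 largest negative genes were *nspc-15*, K01D12.1, K02E11.6, *dlc-4* (a dynein light chain) and *tni-3*, at -5.50, -4.95, -4.75, -4.51 and -4.51. In *tni-3* and *dlc-4* muscle replicate 4 stood apart, with 24.5 and 0.081 TPM. In replicates 1 to 3 *tni-3* had 237, 177 and 244 TPM and *dlc-4* 17.9, 14.1 and 12 TPM. The 5 largest positive genes, Y57E12B.11, Y75B12B.8, Y57E12B.1, C08E3.13 and F47G4.14, differed by 7.54, 6.78, 6.78, 6.77 and 6.52 and were at or below 2.76 TPM in all 6 *daf-16(lf)* libraries apart from C08E3.13, with 0.242, 2.53, 1.02 and 47.2 TPM in muscle cells and 1.53 and 3.29 TPM in all cells.

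The muscle and non-muscle genes that the gate defined at low IIS were then followed in *daf-16(lf)*, a description added after seeing the data. In both low-IIS genotypes 1027 genes were higher in muscle cells than in all cells. Of these, 12 were higher and 1 was lower in *daf-16(lf)*, and 819 had positive differences. Their median was 0.25 in *daf-16(lf)*, against 1.63 in the double mutant and 1.68 in *daf-2(lf)*, and the median of all genes was -0.44. These 12 were all but 1, *dod-21*, of the 13 raised genes. Under median-of-ratios scaling the median was 0.89 and 243 were higher. A further 8217 genes were lower in muscle cells in both low-IIS genotypes. Of these 2645 were lower and 0 higher in *daf-16(lf)*, with a median of -0.73 against -1.70 and -1.93. That is 32.2% of the genes depleted at low IIS and 85.5% of those depleted in *daf-16(lf)*, to be read against 21.0% of all genes lower in *daf-16(lf)* and 55.8% of all genes lower in both low-IIS genotypes. In *daf-16(lf)* 206 genes were lower that were lower in neither low-IIS genotype.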

How the data were processed

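Samples were grouped by the genotype and cell type in their labels. The authors made mRNA-seq libraries from sorted cells, quantified transcripts with Salmon 1.4.0 against WBcel235, per the labels, and deposited a table of TPM with 35749 transcripts. TPM divide reads by effective length and rescale each library to 1000000. The study gives an average and range of reads, so the depth of each library, and with it counting error, is unknown. Transcripts were summed here to 21979 genes by sequence name, 21713 of which matched the Ensembl 115 annotation. Of the listed symbols, 7 found no gene, and 3 sequence names hold 2 genes. Genes reaching 1 TPM in 3 or more libraries entered limma 3.58.1 in R 4.3.3 on log2(TPM + 1), in 1 model of 8 groups and 16 residual degrees of freedom, with its variance prior following abundance, and p-values were adjusted by Benjamini-Hochberg across all these genes. The pseudocount understates changes of low genes. Counts were not given, so the DESeq2 test of the study was not used. The study describes all cells as a fraction of a dissociated preparation taken without the GFP gate, and which muscle library shares a preparation with which all cells library is not given in the sources used here, so p-values take libraries as independent. Genes named are those of the marker and pathway lists, the 15 largest differences per direction among called genes with non-overlapping libraries, the 5 largest per direction of each difference of differences, and *daf-16*. Members and lists were chosen with earlier results of these data known. Alternatives were another pseudocount (0.1), other filters, scalings and models, and each *daf-16(lf)* library left out. Promoter sequences were not used here.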

Additional observations from a re-analysis of the deposited data

Results flagged for a closer look

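Values stand here when 1 of 4 libraries lay far from the other 3, with a gap to the nearest over the whole range above Dixon's 95% critical value, which chance gives in about 1 group in 20. Among the 4 *daf-16(lf)* muscle libraries replicate 4 stood apart in the summed TPM of the body wall muscle genes (229921), hypodermal genes (6561), collagens (37007) and ribosomal proteins (176510.0). Among single genes it was high for *unc-27* (2708 TPM), *heh-1* (735 TPM), *gta-1* (624 TPM), *mlc-2* (3279.7 TPM), *daf-16* (8.95 TPM), *col-117* (3568 TPM), *col-154* (270.3 TPM) and *col-65* (385 TPM), and low for *cpg-9* (9491 TPM), *pat-10* (76074 TPM), *act-4* (31670.2 TPM) and *lev-11* (12401 TPM). Replicate 1 was low for the sum of the *nspc* genes (90.5 TPM), *nspc-13* (0.362 TPM) and T19H12.3 (1.5 TPM). Long transcripts and short ones moved apart in replicate 4, as the plot by transcript length shows, and its part in each of these values was not tested.

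The enrichment by the muscle gate differed between genotypes, by the test of the difference itself, for 2686 genes against the double mutant and 3667 against *daf-2(lf)*. Against the double mutant the largest were *gfi-1* (6.25), *irg-7* (6.05), Y59E9AR.7 (6.03), *bcf-1* (5.98), K06A4.7 (5.92), Y57G11C.38 (-5.84), *nspc-15* (-5.61), K02E11.6 (-4.75), *tni-3* (-4.62) and K01D12.1 (-4.61). Against *daf-2(lf)* they were Y57E12B.11 (7.54), Y75B12B.8 (6.78), Y57E12B.1 (6.78), C08E3.13 (6.77), F47G4.14 (6.52), *nspc-15* (-5.50), K01D12.1 (-4.95), K02E11.6 (-4.75), *dlc-4* (-4.51) and *tni-3* (-4.51). The *daf-2* allele, rearing temperature and any difference in stage or library kit cannot be told apart in these. Against *daf-2(lf)* the *daf-16* genotype and DAF-16 activity differ too and cannot be told apart from them.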

How the results depend on the processing

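Values that moved by over 1.5 times are given here. The 3105 genes that differed between *daf-16(lf)* muscle cells and all cells became 6276 with array weights. The 13 higher genes became 1178 with quantile normalization, 336 with median-of-ratios scaling, 33 with the replicate number as a block, 24 with a block for replicate numbers within a genotype, 99 with array weights, 7 in a model of the compared groups alone, 24 without both libraries labelled wild-type all cells and 651 with median-of-ratios scaling and without muscle replicate 4. The 3092 lower genes became 1578 with quantile normalization and 6177 with array weights. Leaving out each *daf-16(lf)* library in turn gave 844 to 3883 genes in all, 0 to 15 higher and 844 to 3868 lower, the lowest without all cells replicate 2, of which 832 were among the 3092. Of the 13 named raised genes, 5 kept the call without muscle replicate 4, 5 without muscle replicate 1, 9 without replicate 2, 7 without replicate 3, and 4 and 0 without all cells replicates 1 and 2, and 2 did in a model of the compared groups alone. The sign of these and of the 15 lowered genes did not change in any of the settings. Over all genes described singly and all settings, 1155 kept direction and call, 120 lost the call, 42 gained one and 32 changed sign with no call on either side.

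The 2686 genes of the difference from the double mutant became 1457 with a pseudocount of 0.1 and 5293 with array weights. Its positive genes became 1062 with a pseudocount of 0.1, 1257 with median-of-ratios scaling, 1310 with a block for replicate numbers within a genotype, 3383 with array weights and 1125 with median-of-ratios scaling and without muscle replicate 4, and its negative genes 395 with a pseudocount of 0.1, 1461 with quantile normalization and 1910 with array weights. Leaving out each library gave 1802 to 2849 genes, 1374 to 2226 positive and 428 to 729 negative. The 3667 genes of the difference from *daf-2(lf)* became 2181 with a pseudocount of 0.1, 2351 with a block for replicate numbers within a genotype and 6731 with array weights. Its positive genes became 1708 with a pseudocount of 0.1, 1708 with quantile normalization, 1562 with median-of-ratios scaling, 1755 with a block for replicate numbers within a genotype, 5174 with array weights and 1383 with median-of-ratios scaling and without muscle replicate 4, and its negative genes 473 with a pseudocount of 0.1, 1649 with quantile normalization, 1245 with median-of-ratios scaling, 1557 with array weights and 1156 with median-of-ratios scaling and without muscle replicate 4. Leaving out each library gave 2404 to 3914 genes, 1931 to 3220 positive and 473 to 772 negative.

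With median-of-ratios scaling the median difference became 0.96 for body wall muscle genes, -0.84 for germline genes and -1.24 for pharyngeal muscle genes, and with a pseudocount of 0.1 -2.35 for germline genes. Leaving out each *daf-16(lf)* library gave medians of 0.20 to 0.41 for body wall muscle, -0.63 to 0.08 for intestine and -2.39 to -1.40 for hypodermis. For collagens they were -2.60 to -1.39, for neurons -0.74 to -0.27 and for sperm -4.24 to -2.32. For germline they were -1.34 to -0.98 and for pharyngeal muscle -1.98 to -1.51. Whether replicate numbers mark shared preparations could not be settled from 2 shared numbers. For these, the deviations of same-numbered muscle and all cells libraries from their group means had correlations across genes of -0.20 and -0.15, and with 2 all cells libraries their deviations mirror each other. The block gave 33 higher and 4122 lower genes. Where 1 all cells library was left out, the other was assumed to vary like the other groups. The combined setting of scaling and a left-out library was chosen after seeing the data. The planned promoter motifs were not run. The causes of these changes were not tested. Precision is limited by 2 all cells libraries and by the unknown depth of each library.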

Other observations

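Further gene families, grouped by shared name and picked after their values were seen, are given as counts with no test of the family. Of the histone genes (his) 30 of 50 fell in muscle cells of *daf-16(lf)*, with a median of -1.75. The astacin metalloproteases (nas) were lower in 18 of 28, with a median of -1.62, the *spig* genes in 7 of 8 (-4.68) and the *idpp* genes in 11 of 16 (-2.04). The *fipr* genes were lower in 12 of 22 (-2.18), the *nspd* genes in 8 of 9 (-3.32) and the spermatogenesis genes (spe) in 17 of 25 (-1.21). Of 54 transthyretin-related genes (ttr) 2 were higher and 7 lower, with a median of -0.66. Over all genes 21.0% were lower. Under median-of-ratios scaling the numbers lower were 17 for his, 14 for nas, 7 for spig, 9 for idpp, 11 for fipr, 6 for nspd and 16 for spe, and for ttr 7 were higher and 6 lower. Quantile normalization left 9 histone genes lower. Members of a family can share reads, so single genes within them are uncertain. Without all cells replicate 2 the numbers lower were 5 for his, 9 for nas, 6 for spig, 5 for idpp, 3 for fipr, 0 for nspd (2 at an unadjusted p under 0.05), 3 for spe and 5 for ttr.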
